A study of Rattus norvegicus with 4 samples.

Results

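The vesicle fusion and exocytosis machinery of INS-1 cells was examined under short and prolonged activation of adenylyl cyclase. The set comprised the genes whose array symbol named a synaptotagmin, synaptotagmin-like protein, syntaxin, syntaxin-binding protein, VAMP, SNAP, SV2, RAB3, RAB27, complexin, RIM, UNC13 or DOC2 protein, NSF or an NSF attachment protein. These were 82 of 18645 genes on the arrays, covered by 86 probe sets, and where a gene had several probe sets the probe set of highest mean signal stood for it. INS-1 is an insulin-secreting line from an insulinoma of NEDH rats. Cells were kept in RPMI medium with serum. They received forskolin at 10 µM in DMSO for 2 h, DMSO alone (vehicle) for 2 h, forskolin at 10 µM in DMSO for 16 h, or DMSO alone for 16 h. Forskolin switches on adenylyl cyclase directly and so raises cAMP. There was 1 Affymetrix rat gene array for each of the 4 groups, so no difference at one time point could be checked against replicates, and none has a p-value.

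A secretory granule reaches the plasma membrane through RAB3 and RAB27 GTPases and their effectors, is primed by UNC13 and RIM proteins, and fuses when a vesicle SNARE zippers with plasma membrane SNAREs. Syntaxin-binding SM proteins template that assembly, complexins clamp and promote it, and synaptotagmins or DOC2 proteins couple it to calcium. NSF and its attachment proteins then take the SNARE complex apart. In beta cells this machinery releases insulin, and cAMP is known to amplify the release through protein kinase A and EPAC2.

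Values are RMA log2 signals, and a difference is the forskolin minus the vehicle log2 signal of the same time. A gene was tested if its mean signal over the 4 arrays reached 4.56, the median of all genes, which left 9323 genes and 52 of the 82 members. Negative control probe sets had array medians of 3.22 to 3.39 and upper quartiles of 4.37 to 4.57. Of the 30 members under the filter, 24 were below the upper quartile of the controls on all 4 arrays. Signals of different probe sets are not on a common scale, so levels were compared only within a gene. Of 13 beta-cell markers measured, 12 were above that quartile on all arrays, Nkx6-1 being the exception. Glucagon (Gcg) also gave strong signals, between 11.76 and 12.56. Of the beta-cell markers, Nkx6-1 had differences of -1.59 and -0.83 at 2 h and 16 h, Neurod1 of -1.16 and -1.58, and Mafa of 1.31 and -0.52. Ins1 had 0.01 and -0.09, and Ins2 -0.02 and -0.24. The other 8 measured lay between -0.78 and 0.36 at both times. Their part in the results on exocytosis genes was not tested. None of 6 exocrine and duct, 4 fibroblast and endothelial and 4 leukocyte markers was above it on all arrays, and their signals ranged up to 4.75, 4.77 and 2.89 in these lists.

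Most of the machinery stayed within 2-fold of vehicle at both times, and the tested genes past 2-fold came from different families. At 2 h and again at 16 h, Sv2c and Syt4 exceeded vehicle by 2-fold or more. At 16 h Snap25 was also at least 2-fold higher and Rab3b at least 2-fold lower. Short of 2-fold, several genes of a family differed at 16 h, such as Syt11 (-0.89) and Syt17 (-0.86), or Cplx1 (0.76) and Cplx2 (-0.85). In numbers, 2 of the 52 tested members (3.85%) were at least 2-fold higher at 2 h, against 1.93% of all tested genes, and 0 were at least 2-fold lower, against 1.27%. At 16 h, 3 members (5.77%) were at least 2-fold higher, against 2.06% of all tested genes, and 1 (1.92%) was at least 2-fold lower, against 1.93%. These member counts are too small to separate the shares from those of all genes. The median difference of the tested members was -0.04 at 2 h, against -0.10 for all tested genes, and 0.15 at 16 h, against 0.02.

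**Figure D1:**
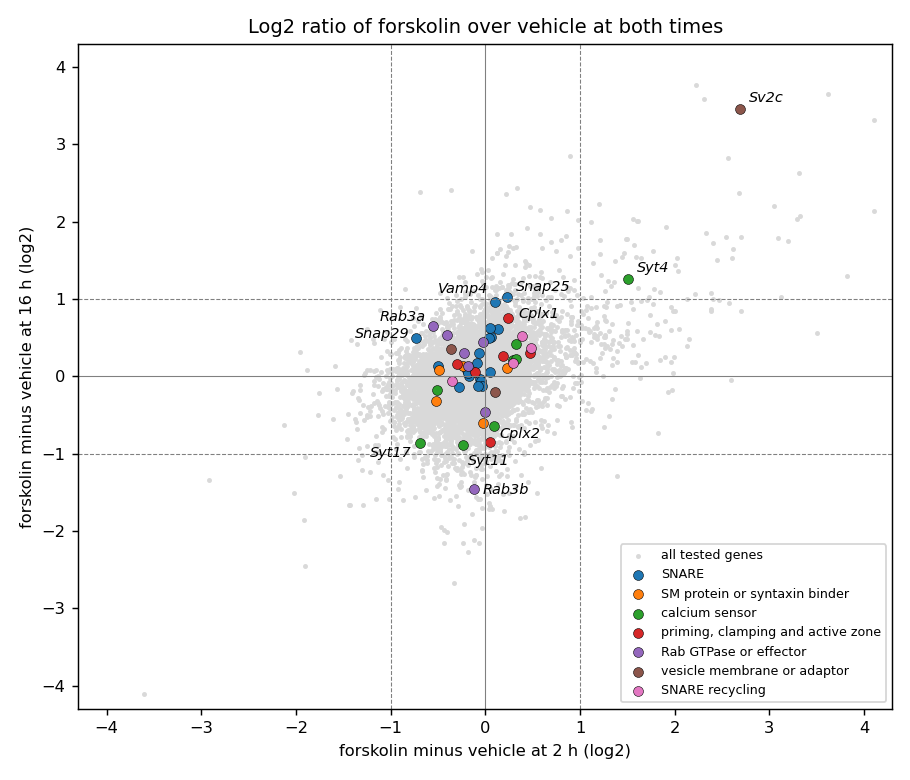
Forskolin minus vehicle log2 signal at 2 h (horizontal axis) and at 16 h (vertical axis) for the 52 tested members, coloured by role, over all 9323 tested genes in grey. Dashed lines mark 2-fold. Sv2c (2.69 and 3.46) and Syt4 (2.83-fold and 2.40-fold) lie in the upper right, Rab3b (-0.12 and -1.45) at the bottom, and most members near the origin.

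A limma fit to the 4 arrays, with a term for forskolin and a term for time, used both times together. Its forskolin term is the average of the 2 h and 16 h differences. Its error combines how far these differ, with 1 residual degree of freedom per gene, with a prior spread estimated from all tested genes. That prior has a median of 7.82 degrees of freedom and so carries most of the weight. The SE and p-values of a gene therefore do not measure only its own agreement between the times. At a Benjamini-Hochberg adjusted p below 0.05, 2 members were called higher, against 0.933% of all tested genes, and 0 lower, against 0.236%. At an unadjusted p below 0.05, 5 members were higher, against 6.05% of all tested genes, and 3 were lower, against 7.86%. The called genes were Sv2c and Syt4. Members with a response at 1 time only cannot pass this fit easily, since that difference counts as spread.

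The SV2 family and the adaptor Snap91 make up the vesicle membrane group. SV2 proteins are transporter-like glycoproteins of synaptic vesicles and secretory granules that also serve as entry receptors for botulinum toxins. Sv2c had a signal of 8.14 with forskolin at 2 h, against 5.45 with vehicle, and of 9.15 with forskolin at 16 h, against 5.69 with vehicle. Both vehicle arrays were low and close to each other, and both forskolin arrays were high. Sv2c was thus 6.45-fold higher at 2 h and higher by a log2 difference of 3.46 at 16 h. Only 14 of all tested genes had a larger difference at 2 h and only 3 at 16 h. Over both times Sv2c rose by 3.07 ± 0.23 log2 units (SE, limma, adjusted p = 0.000943). The vehicle signals lay above the upper quartile of the controls.

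The other SV2 genes stayed close to vehicle. Sv2a, the most widely expressed form of the family in neurons and endocrine cells, had signals of 7.55 with forskolin and 7.46 with vehicle at 2 h, and of 7.28 with forskolin and 7.48 with vehicle at 16 h. Sv2b stayed between 2.80 and 3.18, below the median of the controls on every array. Snap91, which encodes the clathrin adaptor AP180, had 6.34 with forskolin against 6.70 with vehicle at 2 h, and 6.77 against 6.42 at 16 h. Of the 2 tested SV2 genes, 1 passed 2-fold. Whether they differ in response was not tested.

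**Figure D2:**
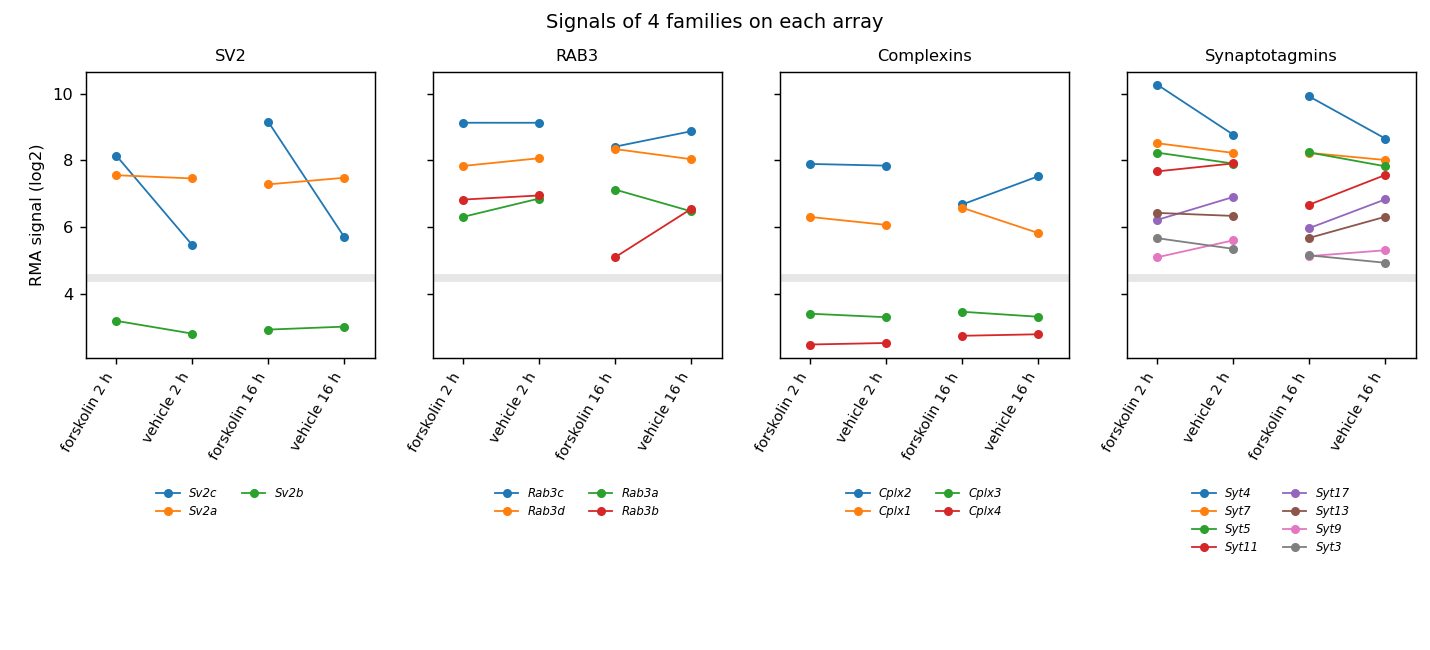
RMA log2 signals of the SV2, RAB3, complexin and synaptotagmin genes on the 4 arrays, with a line joining forskolin to vehicle of the same time and a grey band at the upper quartiles of the negative controls. Synaptotagmins under the filter are left out. Sv2c and Syt4 slope down towards vehicle at both times, whereas Rab3b and Cplx2 slope up towards vehicle at 16 h. Heights are comparable within a gene only.

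Among the calcium sensors, 8 of 19 genes were tested. Syt4, whose product binds granule membranes and has been described as a regulator of the calcium dependence of insulin release in rodent beta cells, had a signal of 10.27 with forskolin at 2 h, against 8.77 with vehicle. At 16 h it had 9.92 with forskolin, against 8.65 with vehicle. Both forskolin arrays were above both vehicle arrays by more than 1 unit. The difference was 2.83-fold at 2 h and 2.40-fold at 16 h, and over both times Syt4 rose by 1.38 ± 0.14 log2 units (SE, limma, adjusted p = 0.00322). A further quantile normalization or a cyclic loess of the tested genes left these differences nearly the same, but the adjusted p of Syt4 was then 0.0548 and 0.094, and that of Sv2c 0.034 and 0.07. The call of Syt4 was thus lost with both scalings and that of Sv2c with cyclic loess.

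The remaining synaptotagmins split by direction. Syt7, a high-affinity calcium sensor of insulin granules, had 8.51 with forskolin and 8.22 with vehicle at 2 h, and 8.22 with forskolin and 8.01 with vehicle at 16 h. Syt5 and Syt3 were likewise above vehicle at both times, with differences of 0.33 and 0.41 for Syt5 and of 0.32 and 0.22 for Syt3. Syt9, the sensor of fast release in INS-1 cells and a subset of neurons, was below vehicle at both times, with differences of -0.51 and -0.18. None of these 4 reached 1.5-fold at either time.

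Lower signals at 16 h were seen for 3 further synaptotagmins. Syt11 had 6.67 with forskolin at 16 h, against 7.56 with vehicle, and 7.67 against 7.91 at 2 h. Syt17 had 5.96 with forskolin at 16 h, against 6.83 with vehicle, and 6.21 against 6.90 at 2 h. Both forskolin arrays of Syt17 were below both vehicle arrays, and its additive log2 ratio was -0.78 ± 0.21 (SE, limma, adjusted p = 0.143). Syt13, an atypical synaptotagmin linked to insulin secretion, had 5.67 with forskolin at 16 h, against 6.31 with vehicle, and 6.42 against 6.33 at 2 h. A second, dim probe set of Syt13 went the other way at 16 h, being higher with forskolin, at signals no higher than many control probe sets gave. In all, 4 of the 8 tested synaptotagmins were lower at 16 h and 4 (50%) were higher, against 52.6% of all tested genes higher.

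The 11 calcium sensor genes under the filter included Syt1, the fast sensor of most neurons, with 2.01 to 2.48 on the 4 arrays. Doc2b, a high-affinity calcium sensor that binds syntaxin and promotes insulin exocytosis, was the only untested member of the whole set with a difference of at least 2-fold. Its signal was 4.91 with forskolin at 16 h, against 3.62 with vehicle, and 3.48 against 3.70 at 2 h. Only the 16 h forskolin array was above the upper quartile of the negative controls, so the size of the 2.44-fold difference is uncertain.

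Promoters of these genes are shown because cAMP-regulated transcription is known to act through the cAMP response element, to which CREB binds. RefSeq start sites (GRCr8) gave a window of 250 bases before to 50 bases after the start for 65 of the 82 members. Snap25 and Doc2b were among the members without a window, so their promoters were not searched. The full element TGACGTCA, which reads the same on both strands, and its core, TGACG on one strand or CGTCA on the other, were searched. A full element always holds both forms of the core. Capitals mark the matches in the sequences below, given 5′ to 3′ in the direction of the gene. The windows are chr2:29163119-29163418 on the minus strand for Sv2c, chr18:23320814-23321113 on the minus strand for Syt4, chr5:128858841-128859140 on the plus strand for Rab3b, chr1:85915185-85915484 on the plus strand for Napa and chr4:159698644-159698943 on the plus strand for Vamp1.
Sv2c: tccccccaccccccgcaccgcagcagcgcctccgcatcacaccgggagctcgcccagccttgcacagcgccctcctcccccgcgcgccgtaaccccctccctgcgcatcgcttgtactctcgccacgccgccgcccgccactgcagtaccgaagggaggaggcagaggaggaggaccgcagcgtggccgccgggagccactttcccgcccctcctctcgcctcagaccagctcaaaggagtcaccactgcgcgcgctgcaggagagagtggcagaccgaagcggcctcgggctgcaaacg
Syt4: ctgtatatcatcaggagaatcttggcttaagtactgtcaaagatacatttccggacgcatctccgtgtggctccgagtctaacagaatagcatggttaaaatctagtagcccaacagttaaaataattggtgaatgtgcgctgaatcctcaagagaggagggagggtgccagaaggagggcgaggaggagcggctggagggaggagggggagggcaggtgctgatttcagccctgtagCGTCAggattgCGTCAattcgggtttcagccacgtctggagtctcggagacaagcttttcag
Rab3b: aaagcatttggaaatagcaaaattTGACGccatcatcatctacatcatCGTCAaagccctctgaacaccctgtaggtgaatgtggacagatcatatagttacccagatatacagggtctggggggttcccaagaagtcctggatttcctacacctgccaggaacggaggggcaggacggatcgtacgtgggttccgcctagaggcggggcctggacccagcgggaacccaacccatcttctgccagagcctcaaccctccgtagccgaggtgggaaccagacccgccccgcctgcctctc
Napa: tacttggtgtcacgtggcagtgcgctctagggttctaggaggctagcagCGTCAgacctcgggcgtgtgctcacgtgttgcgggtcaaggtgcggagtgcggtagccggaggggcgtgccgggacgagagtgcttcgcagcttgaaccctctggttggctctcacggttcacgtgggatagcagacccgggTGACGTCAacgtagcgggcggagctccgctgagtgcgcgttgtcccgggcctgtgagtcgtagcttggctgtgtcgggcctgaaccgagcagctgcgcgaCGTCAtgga
Vamp1: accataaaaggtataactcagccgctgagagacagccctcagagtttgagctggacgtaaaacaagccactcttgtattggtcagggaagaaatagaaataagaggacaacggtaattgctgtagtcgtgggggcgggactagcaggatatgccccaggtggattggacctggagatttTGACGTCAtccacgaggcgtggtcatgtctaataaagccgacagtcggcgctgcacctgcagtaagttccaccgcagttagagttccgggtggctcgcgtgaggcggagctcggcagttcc

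Sv2c, with the largest response, held neither the full element nor a core in this window. Syt4 held cores whose first bases lie at positions -12 and -1 from the start, and no full element. Napa, a tested member above vehicle at both times, held a full element at -59. Vamp1 held one at -71, but it was under the expression filter, with signals of 4.04 with forskolin and 5.03 with vehicle at 2 h and of 4.36 and 4.49 at 16 h, so no direction is given for it. Rab3b, lower at 16 h, held cores at -226 and -202. A full element was in the window of 2 of the 65 members (3.08%), against 549 of 27457 genes (2%), and a core in that of 17 members (26.2%), against 6325 genes (23%). A match is a description of these letters and no evidence of binding.

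SNAREs were the largest group, with 19 of 25 tested. SNAREs of insulin granule fusion include the plasma membrane proteins syntaxin-1A and SNAP-25 and the granule protein VAMP2. Snap25 had a signal of 9.73 with forskolin at 16 h, against 8.69 with vehicle, which is 2.04-fold, and of 9.06 against 8.83 at 2 h. The 16 h forskolin array stood above the other 3 arrays, which lay within 0.4 units of each other. Its additive log2 ratio was 0.63 ± 0.20 (SE, limma, adjusted p = 0.194), and after a further quantile normalization its 16 h difference was 0.997, just under 2-fold. The partners of Snap25 differed less. Vamp2 had 6.52 with forskolin and 6.03 with vehicle at 16 h, and 6.46 with forskolin and 6.43 with vehicle at 2 h. Stx1a stayed between 6.25 and 6.40 on all arrays, and its pair of probe sets carried the same values.

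Beside Snap25, the SNAREs past 1.5-fold at 16 h were Vamp4, Stx16 and Stx5. Vamp4, a SNARE of the trans-Golgi network, had 6.89 with forskolin at 16 h, against 5.92 with vehicle, and 6.34 against 6.23 at 2 h. Stx16, its trans-Golgi partner, had 6.91 against 6.28 at 16 h and 6.27 against 6.22 at 2 h. Stx5, a Golgi syntaxin, had 8.46 against 7.85 at 16 h and 7.95 against 7.81 at 2 h. In each of these genes the 16 h forskolin array was the highest of the 4. Stx18, an endoplasmic reticulum syntaxin, had a difference of 0.52 at 16 h and of 0.06 at 2 h. Counting from 1.5-fold, 4 of the 19 tested SNAREs were higher at 16 h, namely Snap25, Vamp4, Stx16 and Stx5, and 0 were lower. Over all 52 tested members, 8 (15.4%) were at least 1.5-fold higher at 16 h, against 7.11% of all tested genes, and 6 (11.5%) at least 1.5-fold lower, against 6.59%. At 2 h, 2 (3.85%) were at least 1.5-fold higher, against 4.39%, and 2 (3.85%) at least 1.5-fold lower, against 8.42%.

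Several SNAREs hardly differed on any array. Vamp3, a widely expressed SNARE of recycling endosomes, stayed between 8.39 and 8.50. Stx4, a plasma membrane syntaxin that takes part in insulin exocytosis, had differences of -0.05 at 2 h and -0.06 at 16 h, and Vamp8, a SNARE of granule and endosome fusion, had -0.17 and 0.00. The median of the tested SNAREs was -0.06 at 2 h and 0.14 at 16 h. With 1 array per group these small differences do not show that the transcripts were unaffected.

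**Figure D3:**
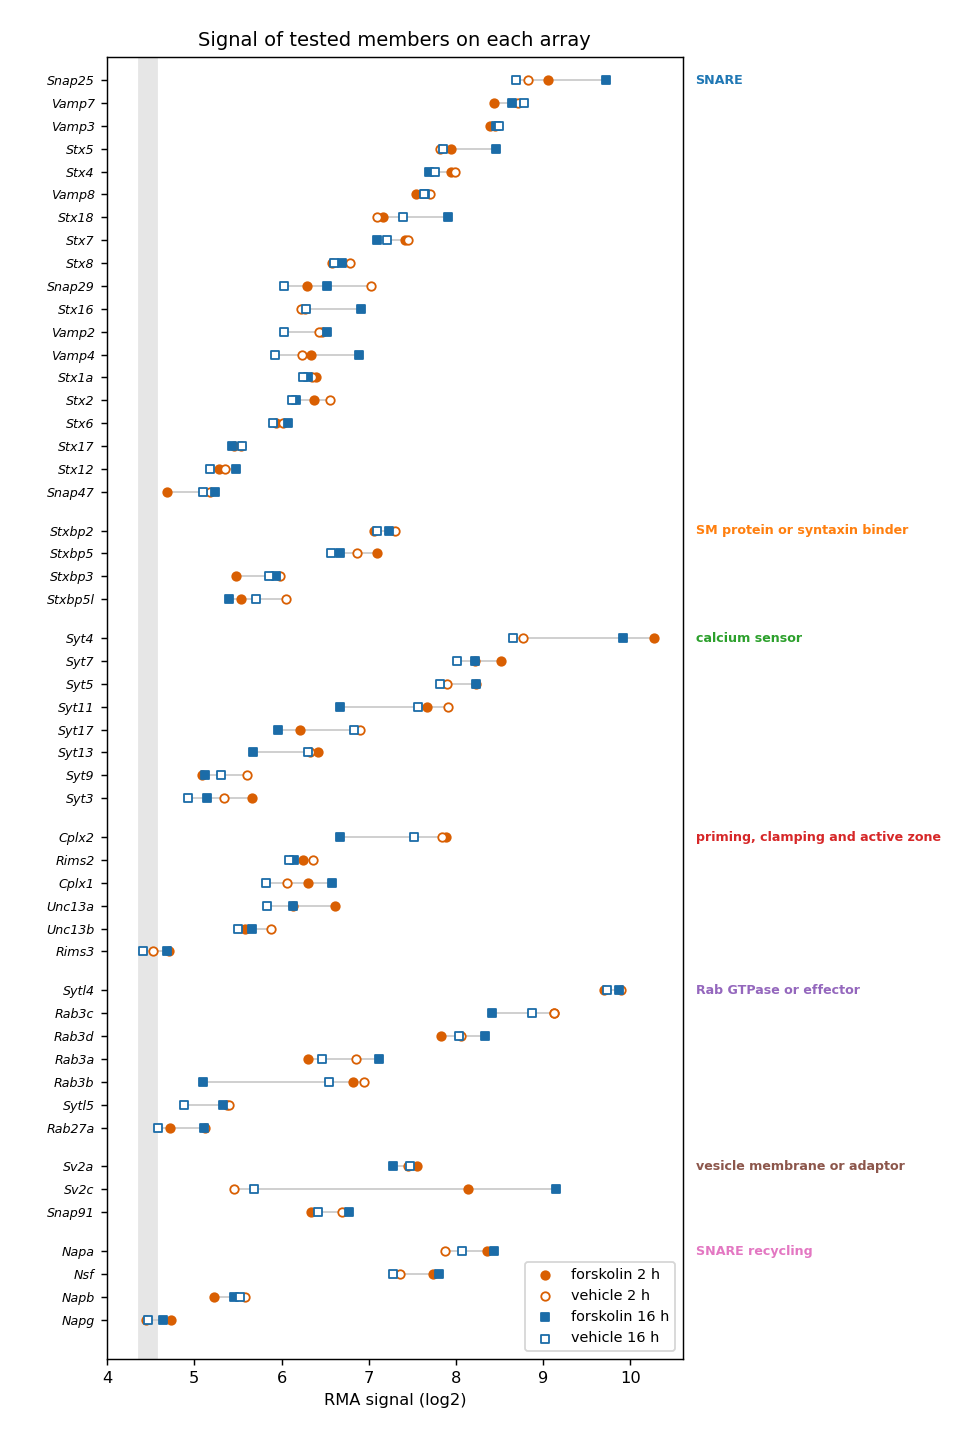
RMA log2 signal of the tested members on the 4 arrays, by role, with 1 of the 52 not shown. Filled symbols are forskolin, open symbols vehicle, circles 2 h and squares 16 h, and the grey band spans the upper quartiles of the negative controls. The widest spread is that of Sv2c, from 5.45 to 9.15.

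Of 7 genes for SM proteins and other syntaxin binders, 5 were tested and none reached 2-fold. Among all tested genes, 1.93% were at least 2-fold higher and 1.27% lower at 2 h, and 2.06% and 1.93% at 16 h. These 5 genes are too few to be told apart from those shares. Stxbp2 and Stxbp3, which encode Munc18-2 and Munc18-3, had differences of 0.14 and 0.08 at 16 h and of -0.23 and -0.49 at 2 h. Stxbp5l, a tomosyn gene that restrains SNARE assembly, was below vehicle at both times, by differences of -0.52 and -0.32, and its paralog Stxbp5 was above vehicle at both, by 0.23 and 0.11.

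At 16 h Cplx1 was above vehicle and Cplx2 below it. Complexins bind the assembled SNARE complex. Cplx1 had 6.57 with forskolin at 16 h, against 5.82 with vehicle, and 6.30 against 6.06 at 2 h. Cplx2 had 6.67 with forskolin at 16 h, against 7.52 with vehicle, and 7.89 against 7.84 at 2 h. For Cplx2 the 16 h forskolin array was below the other 3 by at least 0.8 units. Cplx3 and Cplx4, known as complexins of the retina, reached at most 3.46 and 2.78 on the 4 arrays. The contrast between Cplx1 and Cplx2 was not tested.

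The UNC13 and RIM priming genes that were tested stayed within 1.5-fold of vehicle. Unc13a, which encodes Munc13-1, had 6.61 with forskolin and 6.13 with vehicle at 2 h, and 6.13 with forskolin and 5.83 with vehicle at 16 h. Unc13b had differences of -0.30 and 0.16. Rims2, the RIM gene that links EPAC2 to insulin exocytosis, ranged from 6.09 to 6.36 over the 4 arrays. Of the 12 genes in this group 6 were tested, and Cplx1 and Cplx2 were the only ones past 1.5-fold. At 2 h, 4.39% of all tested genes were at least 1.5-fold higher and 8.42% lower, and at 16 h 7.11% and 6.59%. The 6 genes are too few to be told apart from those shares.

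RAB3 GTPases sit on secretory vesicles and recruit effectors such as RIM and rabphilin. Rab3b had 5.10 with forskolin at 16 h, against 6.55 with vehicle, which is 2.73-fold lower, and 6.82 against 6.94 at 2 h. The 16 h forskolin array stood alone, as the other 3 arrays lay between 6.55 and 6.94. Of all tested genes, 47 had a lower difference at 16 h. The additive log2 ratio of Rab3b was -0.79 ± 0.31 (SE, limma, adjusted p = 0.288). Rab3c was lower by a smaller amount at 16 h, with 8.41 against 8.87, and had 9.13 in both groups at 2 h.

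Rab3a and Rab3d were above vehicle at 16 h and below it at 2 h. Rab3a had 7.12 with forskolin at 16 h, against 6.47 with vehicle, and 6.30 with forskolin at 2 h, against 6.85 with vehicle. Rab3d had 8.34 against 8.03 at 16 h and 7.83 against 8.06 at 2 h. Rab27a, the GTPase that tethers insulin granules, had 5.11 against 4.58 at 16 h and 4.72 against 5.12 at 2 h. The 4.58 lies just above the filter of 4.56, so the sizes of the Rab27a differences are uncertain. The Rab27a effector gene Sytl4, which encodes granuphilin, a docking protein of insulin granules, stayed between 9.70 and 9.89. In this group, 5 of 7 tested genes were below vehicle at 2 h and above it at 16 h, a pattern shown by 17 of the 52 tested members (32.7%) and by 28% of all tested genes.

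**Figure D4:**
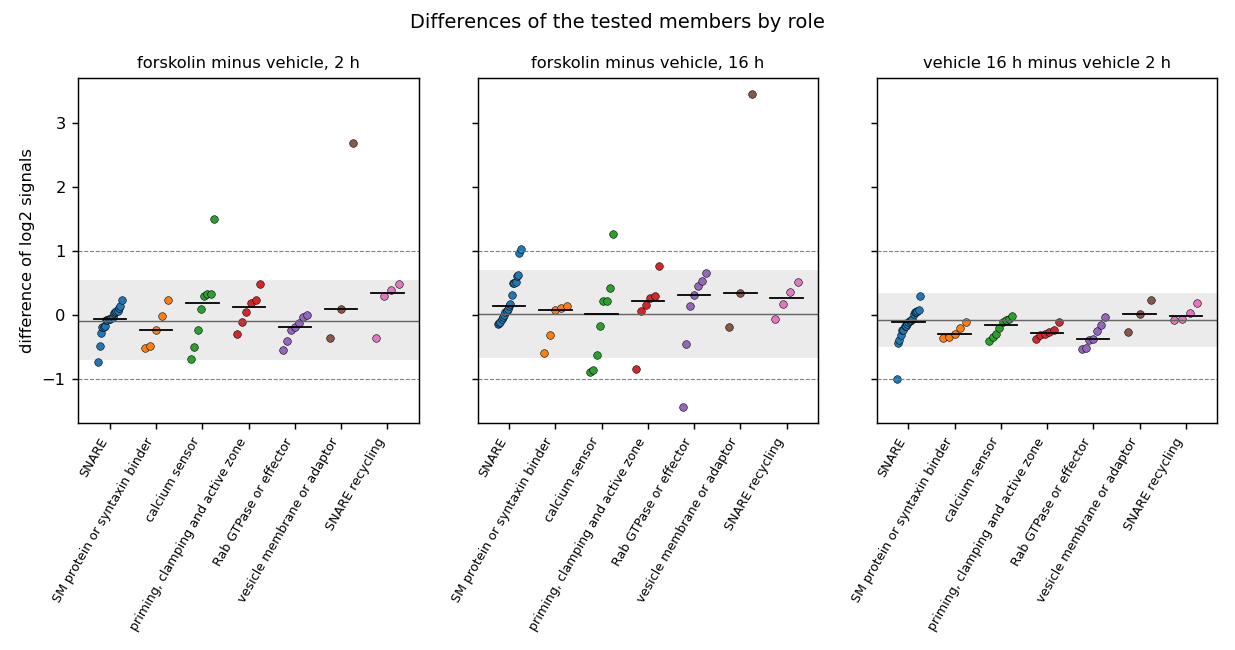
Differences of log2 signals for the tested members, by role, for forskolin minus vehicle at 2 h, at 16 h, and for the 16 h minus the 2 h vehicle array. Points are genes, short bars are group medians, the grey line is the median of all tested genes, the grey band holds their central 90%, and dashed lines mark 2-fold. Sv2c, Syt4, Snap25 and Rab3b lie past 2-fold in the forskolin panels and Snap29 alone in the vehicle panel.

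Of the 4 SNARE recycling genes, all tested, none reached 1.5-fold. Among all tested genes, 4.39% were at least 1.5-fold higher and 8.42% lower at 2 h, and 7.11% and 6.59% at 16 h. A group of 4 genes is too small to be told apart from these shares. Nsf, the ATPase that separates SNARE complexes, had 7.74 with forskolin and 7.36 with vehicle at 2 h, and 7.80 with forskolin and 7.28 with vehicle at 16 h. Napa, which encodes its attachment protein alpha-SNAP, had 8.36 with forskolin and 7.88 with vehicle at 2 h, and 8.43 with forskolin and 8.07 with vehicle at 16 h. In both genes each forskolin array was above both vehicle arrays. Their additive log2 ratios were 0.45 ± 0.18 for Nsf and 0.42 ± 0.17 for Napa (SE, limma, adjusted p = 0.310 and 0.294). Napg had differences of 0.29 and 0.17 near the filter, and Napb of -0.36 and -0.06.

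The vehicle arrays show how far members differed without forskolin. The 16 h vehicle array was above the 2 h vehicle array in 10 of the 52 tested members (19.2%), against 37.2% of all tested genes, and the median of the difference was -0.18, against -0.08 for all tested genes. In all 7 tested genes of the Rab and effector group the 16 h vehicle signal was the lower one, with a median of -0.39. The same held for the 8 tested calcium sensors, 6 priming and active zone genes, and 5 SM and syntaxin-binder genes. Their medians were -0.17, -0.28 and -0.30. The 16 h comparison and this vehicle comparison share the 16 h vehicle array. That array gave the lowest of the 4 signals in 21 of the 52 tested members, against 23.2% of all tested genes. Its part in the 16 h differences was not tested.

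Between the vehicle arrays, 1 member was at least 2-fold lower at 16 h, against 0.0322% of all tested genes, and 0 were at least 2-fold higher, against 0.0536%. The member was Snap29, a SNARE of endosome and autophagosome fusion. Its signals were 6.29 with forskolin and 7.03 with vehicle at 2 h, and 6.52 with forskolin and 6.02 with vehicle at 16 h. The forskolin arrays of Snap29 thus lay within 0.3 units of each other, while its differences were -0.73 at 2 h and 0.50 at 16 h and its vehicle arrays lay 2-fold apart. By contrast the vehicle arrays differed by 0.23 for Sv2c, -0.12 for Syt4, -0.14 for Snap25 and -0.40 for Rab3b. Across all tested genes the SD of the vehicle difference was 0.25.

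The responses at 2 h and 16 h were compared across members with and without Sv2c and Syt4. Over the 52 tested members the differences at both times had a Pearson r of 0.68, and over the 50 without these genes of 0.25. Sv2c and Syt4 are the members past 2-fold at both times, so the lower r without them follows from that choice. No r over all tested genes is set beside these values. Genes on the same arrays are not independent, and this is a description. The 16 h difference minus the 2 h difference was furthest from 0 for Snap29 (1.23), Rab3a (1.20), Rab27a (0.93), Vamp4 (0.86) and Snap25 (0.80) upward and for Rab3b (-1.33), Cplx2 (-0.90), Syt13 (-0.73) and Syt11 (-0.65) downward.

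Other genes of the pathway were followed through a list of 101 accessory genes for priming, Rab effectors and exchange factors, the exocyst, vesicle membrane proteins, other SNAREs and compensatory endocytosis. Of these, 94 were measured and 74 tested. At 2 h, 0 were at least 2-fold higher, against 1.93% of all tested genes, and 0 lower, against 1.27%. At 16 h 1 (1.35%) was at least 2-fold lower, against 1.93% of all tested genes, and 0 higher, against 2.06%. The lower gene was Cadps, which encodes CAPS1, a priming factor of dense-core granules. It had 4.52 with forskolin at 16 h, against 5.71 with vehicle, and 5.80 against 6.09 at 2 h. The 4.52 lies within the range of the upper quartiles of the controls (4.37 to 4.57), so the size of its 16 h difference is uncertain. The active zone scaffold gene Pclo and the Rab effector gene Rph3al, both linked to insulin exocytosis, had differences of -0.66 and -0.88 at 16 h. Amph, an endocytic adaptor gene, had -0.88.

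On the other side, the exocyst gene Exoc6 had 8.86 with forskolin at 16 h, against 8.07 with vehicle, the clathrin adaptor gene Ap2a2 a difference of 0.77, the dynamin gene Dnm1 one of 0.76 and the granule GTPase gene Rab26 one of 0.65. Rab3ip, an exchange factor gene for Rab8 and relatives, was above vehicle at both times, with 7.88 against 7.29 at 2 h and 7.85 against 7.21 at 16 h. The vesicle protein gene Syp had 10.56 with forskolin and 10.13 with vehicle at 2 h, and 10.54 with forskolin and 10.25 with vehicle at 16 h. Bet1l and Cltc had differences of 0.40 and 0.28 at 2 h and of 0.55 and 0.48 at 16 h. The largest downward differences at 2 h were those of Ppfia3 (-0.73), Rimbp2 (-0.68), Exoc3 (-0.56) and Gosr1 (-0.55). At 16 h Rimbp2 had -0.60, whereas Ppfia3 had 0.50, Exoc3 0.14 and Gosr1 0.53. The median of the tested accessory genes was -0.06 at 2 h and 0.19 at 16 h, close to the -0.04 and 0.15 of the members. Over both times limma called 0 of the tested accessory genes, against 0.933% of all tested genes higher and 0.236% lower. In that fit 11 of the 74 had an unadjusted p below 0.05, against 1297 of the 9323 tested genes.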

How the data were processed

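Total RNA was hybridized to 4 arrays, 1 per group. The authors deposited RMA signals on a log2 scale at gene level. Per the submitters' processing notes, Expression Console 1.1.1 produced them. RMA includes background correction, quantile normalization and probe summary, so differences are relative to the array as a whole. The log2 values differed by at most 5e-05 from the series matrix, which was used for that check only. Members and lists were chosen with earlier results of these data known. Symbols of other genes were updated from a table of current rat names (GRCr8). Differences were counted by size (2-fold and 1.5-fold). The limma 3.58.1 fit (R 4.3.3, eBayes with trend, median prior degrees of freedom 7.82) ran on all tested genes. It was also run on data simulated from its own additive model, which cannot show how it behaves on the real arrays. Genes named are members at least 2-fold changed, called by limma, with the highest signals or the largest change between times, a fixed list of core members, and the accessory genes with the largest differences; further members named as contrast were chosen after their values were seen. Marker genes and alternatives (filters, thresholds, scalings, probe set averaging, prior) were recomputed as described in the closing section. Nothing says that cultures were replicated. Values of 1 member and 1 marker gene are not reported here, although counts and medians include them.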

Additional observations from a re-analysis of the deposited data

Results flagged for a closer look

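Members were listed here when forskolin went one way at 2 h and the other way at 16 h, by more than the SD of the vehicle difference over tested genes (0.25) at each time. In none of them was this difference tested, and each time had 1 array per group. Snap29 differed most, by 1.23 log2 units between 16 h and 2 h. Rab3a differed by 1.20, Rab27a by 0.93 and Snap91 by 0.71. The 16 h vehicle signal of Rab27a, 4.58, lies just above the filter of 4.56, so its value is uncertain. All 4 members were below vehicle at 2 h and above it at 16 h. In each, the 16 h vehicle signal was below the 2 h vehicle signal, by 2-fold for Snap29, and with log2 differences of -0.39 for Rab3a, -0.54 for Rab27a and -0.28 for Snap91. The part of the vehicle arrays in these differences was not tested. With no size limit, 17 of the 52 tested members (32.7%) were below vehicle at 2 h and above it at 16 h, against 28% of all tested genes. How many of all tested genes pass the rule with its size limit was not counted.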

How the results depend on the processing

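Counts of members past 2-fold were 2 at 2 h and 4 at 16 h. They were within 1.5 times of that without the expression filter, with a filter on the maximum or a stricter one, after quantile normalization or cyclic loess, with averaged probe sets and after subtracting the median of all genes, with 3 to 5 members at 16 h. From 1.5-fold they were 4 and 14, and the accessory genes went from 1 to 17. Of the tested accessory genes, 1.35% were then higher and 2.7% lower at 2 h, against 4.39% and 8.42% of all tested genes. At 16 h these shares were 12.2% and 6.76%, against 7.11% and 6.59%. The member lower between the vehicle arrays was lost with both scalings, leaving 0. The members' median at 2 h was 0.0748 after cyclic loess, 0.04 after quantile normalization and 0.02 under the stricter filter, so its sign is not settled, while at 16 h it ranged from 0.06 to 0.16. These scalings moved the 2 h median of all tested genes to 0.01 and -0.02. They also moved its 2-fold split from 180 higher and 118 lower to 232 and 64 and to 210 and 76, and the 1.5-fold split to 574 and 431 and to 529 and 486. The limma fit called 2 members under 5 of 7 alternatives, 1 (Sv2c) after quantile normalization and 0 after cyclic loess, where 9 members had an unadjusted p below 0.05. Over all tested genes the calls were 87 higher and 22 lower with the deposited scaling, 6 and 1 after quantile normalization and 1 and 1 after cyclic loess, so the background shares fell too. The cause was not tested. Adjusted p ranged from 0.000106 to 0.07 for Sv2c and from 0.000751 to 0.094 for Syt4. Snap25 at 16 h was 0.997 after quantile normalization. Leaving out an array leaves no residual degree of freedom, so it gives no test. The limma fit compares forskolin with vehicle of the same time through its time term. No further pairing was possible, because the labels give no replicate numbers to use as a block. The number of arrays limits the precision of every single difference, and signals near the negative controls carry uncertain folds.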
